A study of Mus musculus with 9 samples.

Results

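The comparison described here sets ligated mice that received only solvent against the 2 other groups of the study combined. It asks which hippocampal genes stood apart in untreated ligated mice, at levels that neither the sham mice nor the ligated mice given cannabidiol had. The comparison uses all 9 libraries of the series, 3 labelled SNL against the 6 labelled Sham or CBD. All 57010 genes of the deposited table entered, and 17967 of them had enough counts to be tested.

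All mice were of the C57BL/6J strain, and the RNA came from whole hippocampal tissue. Sham mice had the spinal nerve located but not tied, and received solvent. In SNL mice a nerve close to the spinal cord was tied off (spinal nerve ligation, which models neuropathic pain), and solvent was given. CBD mice had the same ligation and then intraperitoneal cannabidiol at 5 mg/kg for 15 days. SNL and CBD mice therefore share the ligation, while sham and SNL mice share the solvent. The series title places the study in pain with depression and asks how cannabidiol acts on it. Whether a group's 3 libraries stem from 3 animals is not stated in the labels. The p-values therefore reflect the spread among these 9 samples alone, and part or all of it may be technical.

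The hippocampus sits within the limbic circuits that stress and long-lasting pain act on, and its pyramidal and granule neurons signal mainly through glutamate receptors held in a postsynaptic scaffold. Corticosterone reaches hippocampal cells through the glucocorticoid receptor, which switches on genes such as Sgk1 and Fkbp5. Cannabidiol is a non-intoxicating cannabinoid whose actions are spread over several receptors, channels and enzymes.

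Total expected counts ran from 16972620 to 20470546 per library, and mitochondrially encoded genes took 3.21% to 6.65% of them. Markers of dentate granule cells, CA1 and CA3 were present in every library, so the tissue matched its label. Tissue from outside the hippocampus was unevenly present: 12 hypothalamic markers summed to 330.3, 76.7 and 426.5 CPM (counts scaled to library size) in SNL 1, SNL 2 and CBD 1, and to 8.92 to 14.4 CPM in the other 6 libraries. Markers of the thalamus and habenula summed to 934 to 2258 CPM in SNL, 567.5 to 851.5 in sham and 888 to 1198 in CBD, highest in SNL 2. List medians are therefore also given with SNL 1, SNL 2 and CBD 1 left out where this moved them by over 1.5 times.

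No gene passed an adjusted p under 0.05 in edgeR's quasi-likelihood test of SNL against the equal-weight mean of sham and CBD (0 of 17967, 0%), and the smallest adjusted p was 0.306. At an unadjusted p under 0.05, 1144 genes stood higher in SNL (6.37%) and 1191 lower (6.63%). DESeq2's Wald test of the same contrast called 174 genes, 53 higher and 121 lower. The tools thus gave 0 and 174 calls, and no gene below is described as changed. A count that needs no model put the same question to the single libraries. All 3 SNL libraries lay above all 6 others for 449 genes (2.5%) and below them for 456 (2.54%). The sham libraries lay outside the others for more genes, 581 above and 467 below, and the CBD libraries for more again, 674 above and 687 below. SNL was the middle of the 3 group means for 35.6% of genes, sham for 32.2% and CBD for 32.3%. Untreated ligated mice were thus the group with the fewest genes of their own by this count.

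Genes apart from each of the other groups, at an unadjusted p under 0.05 against sham and against CBD with the same sign, numbered 240 higher (1.34%) and 332 lower (1.85%). Both comparisons use the same SNL libraries. A narrower choice kept 123 higher and 163 lower genes of these, the ones that fit the question most closely. Their sham and CBD means lay within 0.2 of each other on the log2 scale. All 3 SNL libraries also had to lie outside the range of the 6 others. Genes averaging under 1 CPM and genes known only by a clone name or identifier were left out. The closeness of sham and CBD in those genes, and the lack of overlap with SNL, were required by that choice and are no result.

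Nr2c2, which encodes the orphan nuclear receptor TR4, had the smallest p of all genes. It read 56.8, 67.2 and 56.3 CPM in SNL, 88.0, 89.5 and 84.3 CPM in sham, and 92.0, 91.9 and 102 CPM in CBD. Every SNL library lay below every other library, with a gap of 17.2 CPM between the highest SNL and the lowest of the rest. The difference was -0.60 on the log2 scale (SE 0.09), with an adjusted p of 0.306 by edgeR and of 1.8e-05 by DESeq2. CBD and sham differed by 0.13, with a 95% interval from -0.09 to 0.35. Without SNL 1, SNL 2 and CBD 1 the difference was -0.71.

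Other genes lower in SNL than in both groups had varied roles. Dip2c was close to flat within SNL at 61.5, 59.3 and 59.6 CPM, against 77.8, 82.4 and 86.9 in sham and 80.6, 76.6 and 82.8 in CBD. The groups did not overlap, and the log2 difference was -0.43 (SE 0.08). Klhl11, a Kelch-family adaptor of cullin ubiquitin ligases, read 9.28, 12.04 and 9.51 CPM in SNL and 14.7 to 23.01 CPM in the 6 others, a log2 difference of -0.86 (SE 0.16). Mtmr9, a catalytically inactive member of the myotubularin phosphatase family, read 36.0, 42.8 and 36.7 CPM in SNL and 49.1 to 56.7 elsewhere, a log2 difference of -0.46 (SE 0.09). Tnfrsf21, the death receptor DR6, read 64.9 to 80.9 CPM in SNL and 90.1 to 103 in the rest. For all 3 of these genes no SNL library reached the lowest of the other 6. Fam120c differed by -0.48 and H2-T24, a non-classical class I histocompatibility gene, by -0.84, each also without overlap. Their adjusted p was 0.306 in edgeR, as for all genes named so far, and DESeq2 gave each of the 7 genes named in this and the preceding paragraph an adjusted p between 1.8e-05 and 0.0145.

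**Figure D1:**
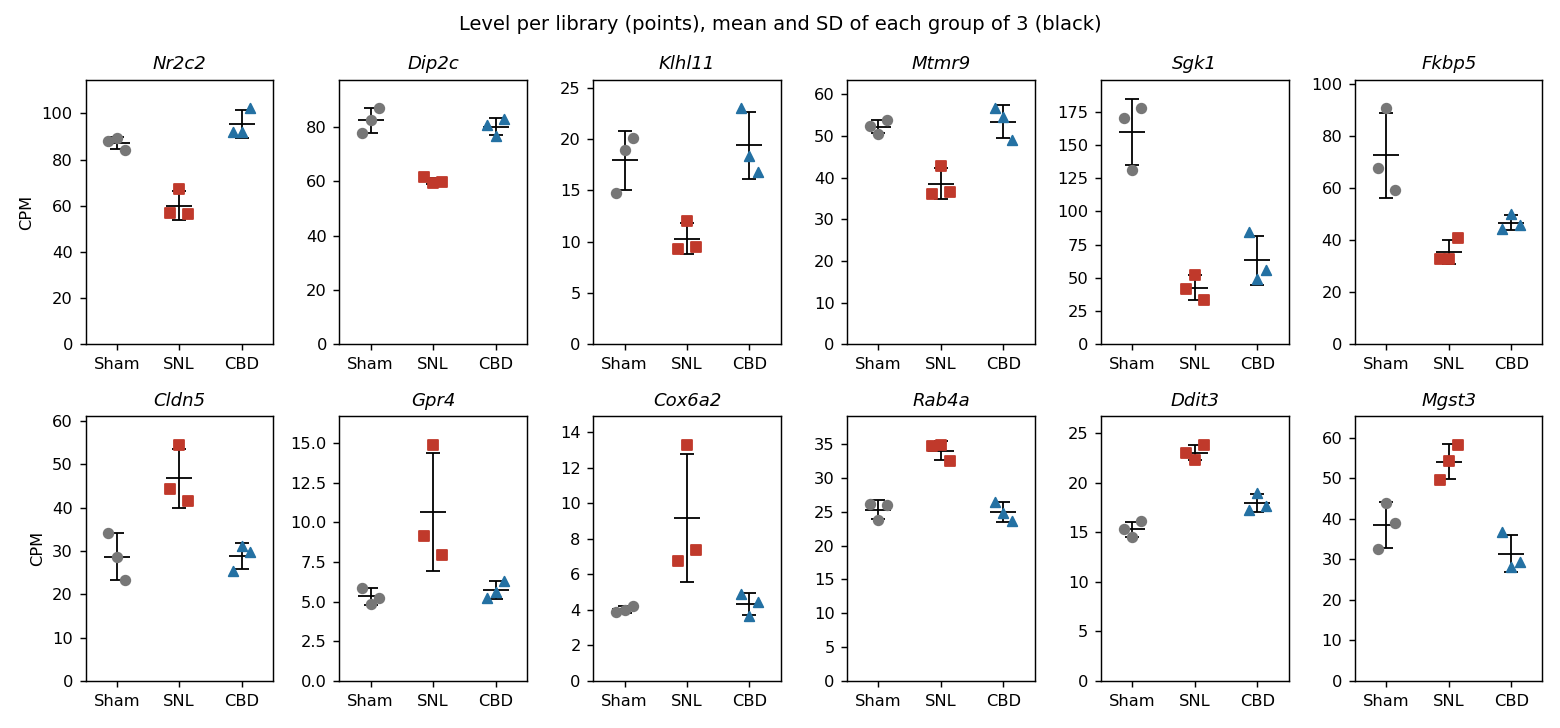
CPM (vertical axis, from 0) of 12 genes in each of the 9 libraries, with points for single libraries and black bars for the mean and SD of the 3 libraries of a group. In Nr2c2, Dip2c, Klhl11 and Mtmr9 the SNL points lie below all others, in Cldn5, Gpr4, Cox6a2, Rab4a, Ddit3 and Mgst3 above all others, while in Sgk1 the SNL and CBD points overlap far below sham.

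A second kind of low gene had CBD between SNL and sham. Kcnh1, the voltage-gated potassium channel Eag1, read 27.4, 26.1 and 30.9 CPM in SNL, 52.7, 53.2 and 42.1 in sham, and 36.8, 35.7 and 41.6 in CBD. The 3 groups did not overlap at all, with CBD in the middle. Plxna1, a receptor for semaphorin guidance cues, was 108, 107 and 109 CPM in SNL, 147 to 191 in sham and 135 to 139 in CBD. Adcy9, an adenylyl cyclase, read 27.0, 38.2 and 39.8 CPM in SNL, 66.8 to 84.9 in sham and 40.8 to 65.8 in CBD. The log2 differences between CBD and sham were -0.38 (95% interval -0.65 to -0.10), -0.35 (-0.59 to -0.11) and -0.49 (-0.93 to -0.06) for these 3 genes. Those intervals are not adjusted for the number of genes. The adjusted p of CBD against sham was 0.221, 0.217 and 0.265 by edgeR. Ccnjl, a cyclin J-like gene, was of the same kind, at 1.93 to 2.16 CPM in SNL, 4.23 to 7.38 in sham and 3.13 to 3.66 in CBD. Xkr4, of the XK-related membrane protein family, was not, at 11.4 to 14.6 CPM in SNL, 17.9 to 21.6 in sham and 21.9 to 24.4 in CBD.

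Among genes higher in SNL, several are known from the vessel wall. Cldn5, the claudin that seals the tight junctions of the blood-brain barrier, read 44.2, 54.5 and 41.5 CPM in SNL, 34.2, 28.5 and 23.4 in sham, and 25.3, 31.1 and 29.8 in CBD. All SNL libraries lay above the rest, and the log2 difference was 0.70 (SE 0.13). CBD and sham differed by 0.00, with a 95% interval from -0.35 to 0.36. Egfl7, a protein secreted by endothelium, read 29.6, 28.3 and 31.1 CPM in SNL and 18.6 to 24.2 elsewhere. Gpr4, a proton-sensing receptor of endothelial cells, read 9.10, 14.9 and 7.92 CPM in SNL and 4.85 to 6.31 elsewhere, with SNL 2 well above the other 2 SNL libraries. Cav1, the coat protein of caveolae, read 19.8 to 21.5 CPM in SNL and 12.5 to 17.1 elsewhere. Slc29a1, a nucleoside transporter of the cell membrane, read 42.7, 50.1 and 35.0 CPM in SNL, and its lowest SNL value was under the 35.9 CPM of CBD 1. Left without SNL 1, SNL 2 and CBD 1, the log2 difference was 0.49 for Cldn5 and 0.49 for Gpr4, against 0.70 and 0.95 with all libraries.

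The list of 16 endothelial and pericyte markers lay on the same side. Of its members 15 stood higher in SNL, 10 of them at an unadjusted p under 0.05 (62.5%, beside 6.37% of all genes). All SNL libraries lay above the rest for 4 (25%, beside 2.5% of all genes): Cldn5, Vtn, Esam and Kcnj8. Vtn, vitronectin, which pericytes make, read 86.6, 102 and 91.5 CPM in SNL and 65.2 to 77.5 elsewhere. Slco1a4, an organic anion transporter of brain vessels, read 67.9 to 80.1 CPM in SNL, 44.6 to 56.1 in sham and 57.4 to 74.7 in CBD, so SNL and CBD overlapped. The median log2 difference of the list was 0.35, beside 0.01 over all genes tested; it was 0.42 against sham and 0.20 against CBD, comparisons that share the SNL libraries. The summed level was highest in SNL 2, at 995 CPM, then 840.2 in SNL 1 and 749.8 in SNL 3, which lay within the 740.3 to 753.6 CPM of the CBD libraries. Without SNL 1, SNL 2 and CBD 1 the median was 0.13, and without SNL 2 alone it was 0.21. In tissue RNA, more cells of a type and more RNA per cell cannot be told apart.

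Thalamic and habenular markers stood higher beside these genes. In SNL 15 of 15 stood higher, 7 of them at an unadjusted p under 0.05, beside 6.37% of all genes. The median log2 difference of the 15 was 0.82, and none was at 0 in any library. Their part in the vessel genes was not tested. Without SNL 2, the library richest in them, Cldn5 had a log2 difference of 0.58 and Gpr4 of 0.62. Cox6a2, the muscle-type subunit of cytochrome c oxidase, was likewise highest in SNL 2. It read 6.77, 13.3 and 7.38 CPM in SNL and 3.66 to 4.87 in the 6 others, a log2 difference of 1.13 (SE 0.22) that was 0.76 without SNL 2.

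The remaining genes of this kind came from several systems. Rab4a, a small GTPase that returns endosomes to the cell surface, read 34.7, 34.9 and 32.5 CPM in SNL, 23.8 to 26.2 in sham and 23.6 to 26.5 in CBD. The log2 difference was 0.44 (SE 0.08), and CBD and sham differed by -0.02 (95% interval -0.24 to 0.19). Rangrf, a Ran-binding protein, read 9.94 to 10.6 CPM in SNL and 6.61 to 8.004 elsewhere. Plekhb1, a pleckstrin-homology protein, read 586 to 688 CPM in SNL and 423 to 535 elsewhere, and Itm2a, a membrane protein, 73.1 to 84.5 CPM against 51.0 to 65.1. None of these 4 genes overlapped between SNL and the rest. Flywch2 was also without overlap, at 6.89 to 8.29 CPM in SNL and 3.76 to 6.07 elsewhere.

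**Figure D2:**
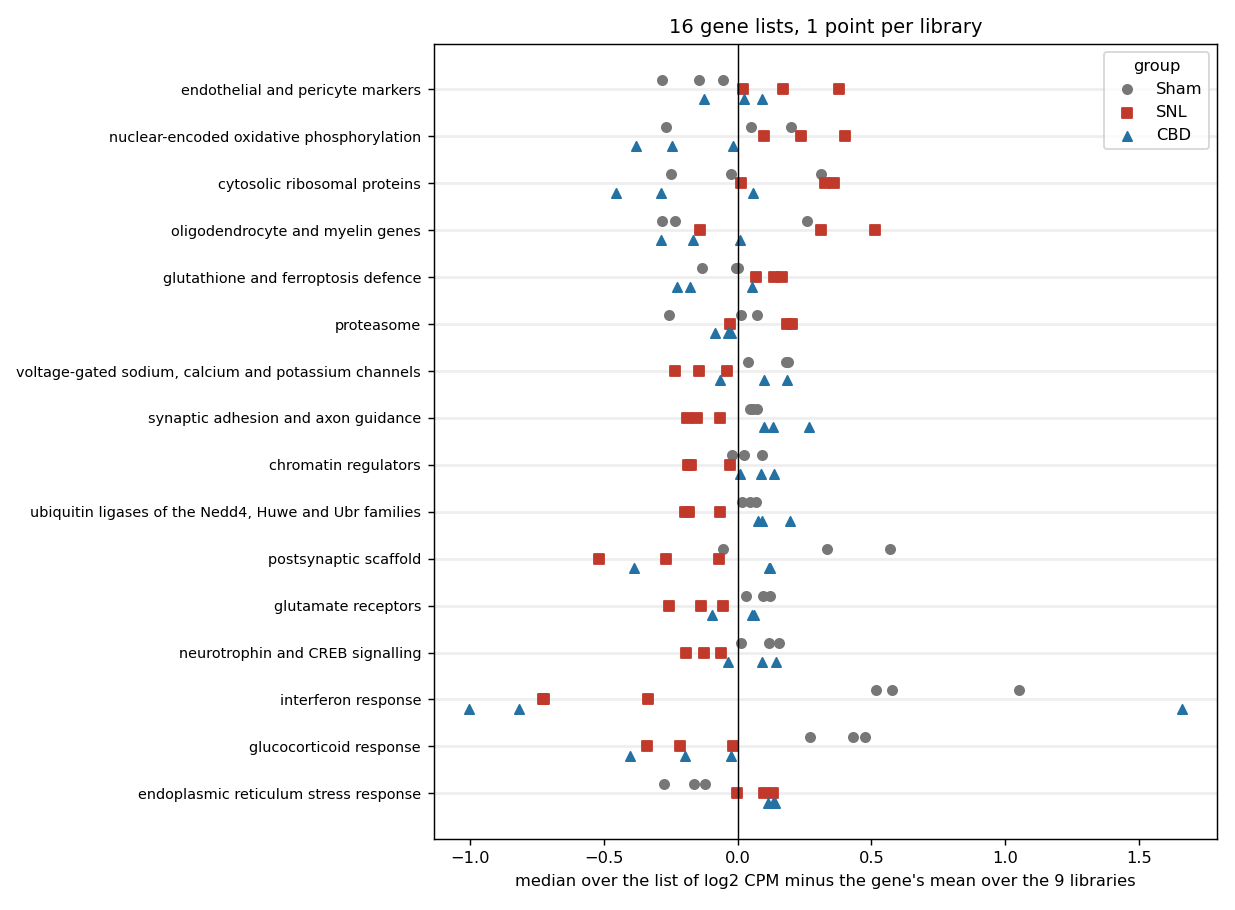
Each of 16 gene lists is a row, and each point is 1 library: the median over the list's genes of log2 CPM minus the gene's own mean over the 9 libraries. SNL points (red squares) lie to the left of every sham and CBD point for synaptic adhesion and guidance, ubiquitin ligases, chromatin regulators and neurotrophin signalling, to the right of them for glutathione genes, and CBD 1 lies alone at the right for the interferon list.

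Genes of the respiratory chain stood higher in SNL. All 40 nuclear-encoded genes of oxidative phosphorylation, the mitochondrial chain that makes ATP, had a positive difference, with a median of 0.37. An unadjusted p under 0.05 was reached by 27 of them (67.5%, beside 6.37% of all genes). Ndufa11, a complex I subunit, read 70.3, 66.6 and 72.7 CPM in SNL, 45.6, 62.0 and 58.5 in sham, and 58.0, 41.5 and 35.7 in CBD. Ndufb10, another subunit of that complex, read 123, 111 and 163 CPM in SNL and 80.7 to 108 elsewhere. Ndufs7, which holds an iron-sulfur cluster of complex I, overlapped the sham range, at 66.4, 53.7 and 71.2 CPM in SNL against 46.9 to 58.8. Only 6 of the 40 genes had all SNL libraries above the rest (15%, beside 2.5% of all genes). The list's median was 0.26 against sham and 0.46 against CBD, and CBD was 0.22 below sham (median -0.22). Without SNL 1, SNL 2 and CBD 1 the median over the combined groups was 0.59. The 13 genes that the mitochondrial genome itself encodes had a median of 0.13 and none at an unadjusted p under 0.05. Of 25 genes of glycolysis and the citric acid cycle, 1 stood higher at that level, with a median of 0.04. All SNL libraries lay above the rest for 3 of the 25, beside 2.5% of all genes.

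The 42 cytosolic ribosomal protein genes were much alike: 41 stood higher, 14 of them (33.3%, beside 6.37% of all genes) at an unadjusted p under 0.05, with a median of 0.34. Rps6, a small-subunit protein phosphorylated when growth signalling is active, read 355, 297 and 311 CPM in SNL and 218 to 294 elsewhere. Rps9, of the same subunit, read 173 to 212 CPM in SNL and 138 to 185 elsewhere, with overlap. These genes have many near-identical pseudogene copies, and their counts are uncertain where reads could be split among copies. The median was 0.20 against sham and 0.47 against CBD, and 0.54 over the combined groups without SNL 1, SNL 2 and CBD 1. Of 26 proteasome genes 24 stood higher (median 0.15), 6 (23.1%, beside 6.37% of all genes) at an unadjusted p under 0.05. Leaving out Sham 1 gave that list a median of 0.10, leaving out SNL 2 0.24, and leaving out SNL 1, SNL 2 and CBD 1 0.26. Psmd4, the ubiquitin receptor of the proteasome cap, had all SNL libraries above the rest, at 110 to 126 CPM against 91.9 to 105. Psmb6, a catalytic subunit, and Psmc5, an ATPase of the base, differed by 0.30 and 0.28 with overlap.

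Defence against peroxides gave a smaller shift. Of 24 genes of glutathione metabolism and ferroptosis defence 21 stood higher (median 0.14), 6 (25%, beside 6.37% of all genes) at an unadjusted p under 0.05. Mgst3, a membrane-bound glutathione transferase and peroxidase, led them at 49.7, 54.2 and 58.3 CPM in SNL, 32.5, 43.9 and 39.0 in sham, and 36.8, 28.2 and 29.4 in CBD. The log2 difference was 0.64 (SE 0.12), without overlap. Prdx5, a peroxiredoxin, read 176 to 213 CPM in SNL and 135 to 166 elsewhere. Gpx4, the peroxidase that removes lipid peroxides in ferroptosis, read 187 to 221 CPM in SNL and 135 to 194 elsewhere, with SNL 2 under Sham 2. The regulator Nfe2l2 and its targets Hmox1, Gclm and Slc7a11 differed by at most 0.06 in either direction.

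Myelin genes stood higher in SNL, but the libraries varied. All 16 had a positive difference, 6 (37.5%, beside 6.37% of all genes) at an unadjusted p under 0.05, with a median of 0.34. Mbp, myelin basic protein, read 5909, 7036 and 5295 CPM in SNL, 4475, 3986 and 5263 in sham, and 4215, 3778 and 4146 in CBD. SNL 3 lay only just above Sham 3. Mobp read 2375, 2532 and 1857 CPM in SNL, and Sham 3, at 1949, was above SNL 3. Opalin, of the myelin paranodes, overlapped in the same way. The summed level was 14410 and 16770 CPM in SNL 1 and SNL 2 and 11650 CPM in SNL 3, within the 9756 to 13300 CPM of the sham libraries. Without SNL 1, SNL 2 and CBD 1 the median was 0.01. It was 0.15 without SNL 2 alone and 0.50 without SNL 3. Among the SNL libraries, the hypothalamic and thalamic sums given above were also higher in SNL 1 and SNL 2 than in SNL 3, and their part in the myelin result was not tested.

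Genes that act on chromatin stood lower in SNL. Of 27 chromatin regulators 25 had a negative difference, 11 (40.7%, beside 6.63% of all genes) at an unadjusted p under 0.05, and 10 had all SNL libraries below the rest (37%, beside 2.54%). Ash1l, a histone methyltransferase that marks active genes, read 96.2, 115 and 103 CPM in SNL, 137, 148 and 128 in sham, and 135, 150 and 168 in CBD. Setd2, the methyltransferase of histone H3 lysine 36, read 56.1 to 66.8 CPM in SNL and 68.5 to 86.4 elsewhere. Ep300, a histone acetyltransferase and partner of CREB, read 51.6 to 69.9 CPM against 68.0 to 77.5, so SNL 2 overlapped Sham 2. The list's median was -0.18, -0.28 without SNL 2 and -0.28 without SNL 1, SNL 2 and CBD 1. It was -0.19 against sham and -0.19 against CBD, while CBD and sham differed by 0.04.

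All 21 ubiquitin ligases of the Nedd4, Huwe and Ubr families had a negative difference, with a median of -0.21. An unadjusted p under 0.05 was reached by 12 of them (57.1%, beside 6.63% of all genes). Ube3c, which extends ubiquitin chains at the proteasome, read 66.9 to 75.0 CPM in SNL and 81.6 to 93.0 elsewhere. Hectd2 had the largest difference of the list, -0.91, but CBD 1, at 11.6 CPM, lay within the SNL range of 9.28 to 12.7. The median was -0.17 against sham and -0.23 against CBD, and CBD was 0.04 above sham.

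**Figure D3:**
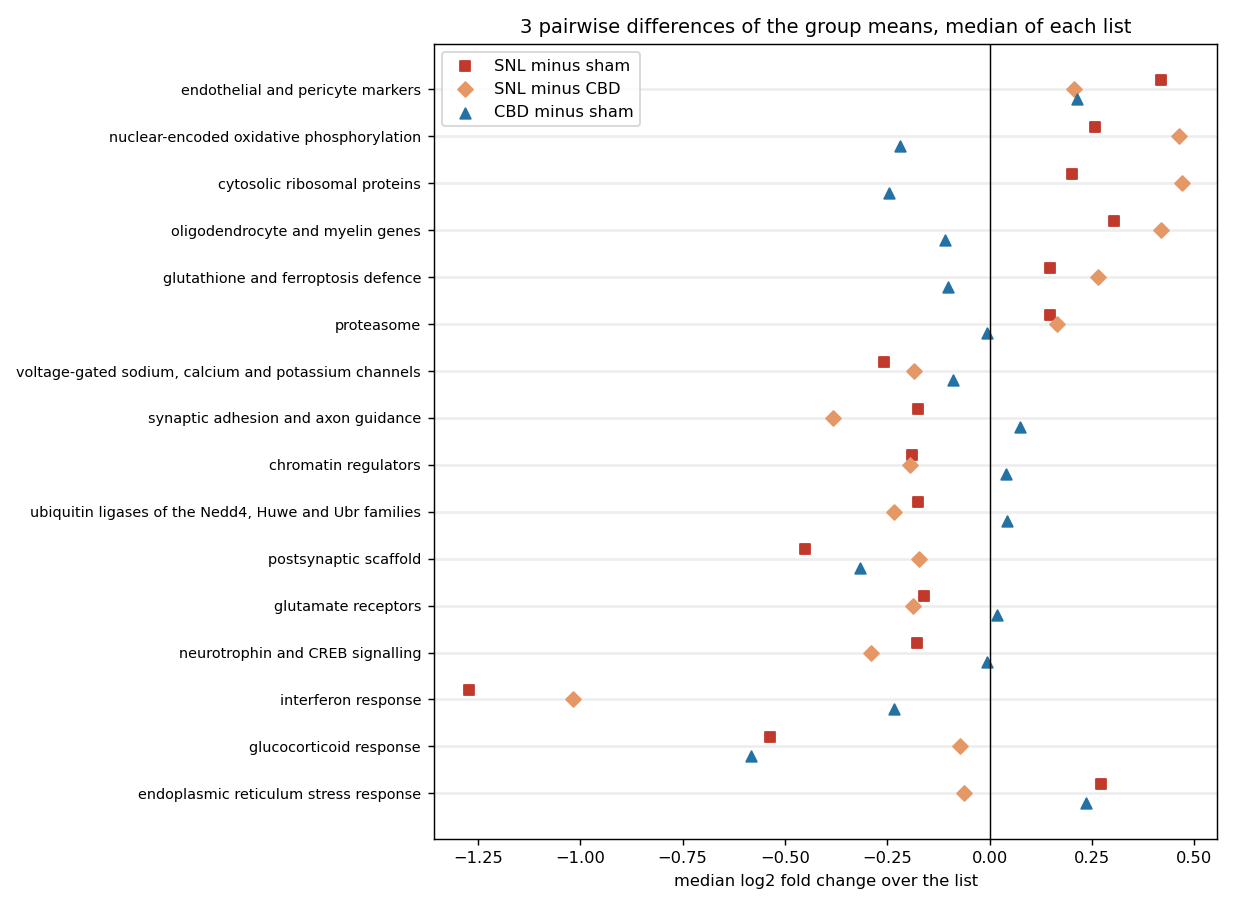
For each of the 16 lists (rows) the median log2 fold change is drawn for SNL minus sham, SNL minus CBD and CBD minus sham; the first 2 share the SNL libraries. Red squares and orange diamonds lie together on 1 side for chromatin regulators (-0.19 and -0.19) and ubiquitin ligases (-0.17 and -0.23), and apart for the glucocorticoid list (-0.54 and -0.07).

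Voltage-gated channels were split. Of 31 genes 23 stood lower and 8 higher, with a median of -0.24. At an unadjusted p under 0.05 by edgeR, 13 stood lower (41.9%, beside 6.63% of all genes) and 0 higher (beside 6.37%). All SNL libraries lay below the rest for 8 of the genes (25.8%, beside 2.54% of all genes). Beside Kcnh1, the sodium channels Scn2a and Scn3a, which carry action potentials in axons and in developing and adult forebrain neurons, stood out. Scn2a read 168, 139 and 179 CPM in SNL, 214, 242 and 199 in sham, and 228, 239 and 255 in CBD. Scn3a read 44.0 to 45.7 CPM in SNL, 50.8 to 58.2 in sham and 61.7 to 76.6 in CBD, where CBD stood above sham by 0.27 (95% interval 0.03 to 0.51). Scn1a, the sodium channel of inhibitory neurons, differed by 0.02 and Kcna2 by -0.01.

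Genes of synaptic adhesion and axon guidance were lower for 21 of 25, with a median of -0.29. An unadjusted p under 0.05 was reached by 11 (44% of the list, beside 6.63% of all genes). Robo1, a receptor for Slit cues, read 36.2, 38.2 and 39.5 CPM in SNL, 49.9, 49.1 and 55.3 in sham, and 47.0, 52.7 and 62.6 in CBD. Its ligand gene Slit2 and the netrin receptor gene Dcc also had all SNL libraries below the rest, with differences of -0.58 and -0.62. Nlgn1, the neuroligin of excitatory synapses, read 39.0, 28.8 and 39.2 CPM in SNL and 45.5 to 59.6 elsewhere. Nrp1, a semaphorin co-receptor, read 30.3, 25.5 and 38.4 CPM in SNL, but CBD 1, at 37.0 CPM, lay within that range. With offsets for transcript length and GC content the median was -0.19.

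Postsynaptic genes stood lower with wide spread. In the postsynaptic scaffold list 20 of 21 had a negative difference, with a median of -0.36. An unadjusted p under 0.05 was reached by 7 of them (33.3%, beside 6.63% of all genes). All SNL libraries lay below the rest for 0 of the 21 (0%, beside 2.54% of all genes). The median was -0.23 without SNL 1. It was -0.45 against sham and -0.17 against CBD, comparisons that share the SNL libraries, with CBD at -0.32 against sham. Dlg2, the scaffold protein PSD-93, read 178, 168 and 222 CPM in SNL, 263, 278 and 219 in sham, and 242, 301 and 313 in CBD, so SNL 3 lay just above Sham 3. Sipa1l1, a spine protein that acts on Rap, read 136, 175 and 201 CPM in SNL, and CBD 1, at 178 CPM, lay among them. Cacng8, an auxiliary subunit of AMPA receptors, was low in both ligated groups, at 37.9 to 53.4 CPM in SNL and 40.3 to 52.1 in CBD against 69.7 to 116 in sham. Of 22 glutamate receptor genes 14 stood lower (median -0.20), 5 (22.7%, beside 6.63% of all genes) at an unadjusted p under 0.05. With offsets for transcript length and GC content the median was -0.13. Grm5, the metabotropic receptor mGluR5, read 122, 103 and 145 CPM in SNL and 148 to 217 elsewhere, without overlap. The AMPA receptor genes Gria1 and Gria2 each differed by -0.55, and in both CBD 1 lay within the SNL range.

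Neurotrophin and CREB genes were lower for 14 of 16, 5 (31.2%, beside 6.63% of all genes) at an unadjusted p under 0.05, with a median of -0.29. The median was -0.10 without CBD 1, -0.16 without SNL 3 and -0.18 by voom with sample weights. Ntrk3, the receptor of neurotrophin-3, read 126 to 170 CPM in SNL and 173 to 242 elsewhere, without overlap. Crtc1, a CREB coactivator, read 148 to 187 CPM in SNL and 159 to 220 in CBD, against 213 to 333 in sham. Bdnf, the neurotrophin most often linked to depression, read 21.9, 18.5 and 26.5 CPM in SNL, 30.1, 43.0 and 26.5 in sham, and 18.6, 29.6 and 34.9 in CBD. The groups overlapped, and the difference was -0.44 (SE 0.22, adjusted p = 0.417 by edgeR).

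Markers of granule cells and CA1 neurons stood lower beside the neuronal lists. Granule cell markers were lower for 13 of 15 and CA1 markers for 10 of 10, with medians of -0.47 and -0.39. Against sham the medians were -0.65 and -0.60, against CBD -0.22 and -0.22, and CBD was at -0.26 and -0.29 against sham. The granule cell sums were 531 to 741 CPM in SNL, 757.5 to 1211 in sham and 542 to 964 in CBD, and the CA1 sums 524 to 823, 787 to 1236 and 523 to 940. Markers of CA3 and mossy cells were mixed, with 9 of 14 lower and 5 higher. At an unadjusted p under 0.05, 4 were lower and 2 higher, beside 6.63% and 6.37% of all genes. The CA3 and mossy cell sums were 1401 to 1691 CPM in SNL, 1408 to 1748 in sham and 1291 to 1849 in CBD. None of the granule cell and CA1 markers was at 0 in any library, and their part in the channel, scaffold and receptor results was not tested. The cannabinoid receptor gene Cnr1 read 94.0, 58.3 and 126 CPM in SNL and 98.3 to 142 elsewhere, a difference of -0.41 (SE 0.21) whose adjusted p was 0.42 by edgeR.

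Glucocorticoid-response genes were mostly low in both ligated groups. Of 21 genes 16 stood lower and 5 higher in SNL. At an unadjusted p under 0.05, 9 stood lower (42.9%, beside 6.63% of all genes) and 2 higher (9.52%, beside 6.37%). The median was -0.54 against sham and -0.07 against CBD, with CBD at -0.58 against sham. Sgk1, the serum- and glucocorticoid-regulated kinase, read 41.6, 52.3 and 33.4 CPM in SNL, 170, 131 and 178 in sham, and 84.2, 49.1 and 56.0 in CBD. SNL and CBD overlapped, and the 6 ligated libraries all lay below sham. In the test of sham against the mean of SNL and CBD, Sgk1 (1.62, adjusted p = 0.0333) and Arl4d (1.34, adjusted p = 0.024), a small GTPase, were the 2 genes edgeR called. Fkbp5, the co-chaperone that dampens the glucocorticoid receptor, read 32.9, 32.7 and 41.0 CPM in SNL, 67.9, 90.8 and 59.1 in sham, and 44.3, 50.1 and 46.0 in CBD, without overlap between any groups. Hif3a, a hypoxia-inducible factor subunit, read 3.15, 2.997 and 2.87 CPM in SNL and 8.82 to 12.3 in sham, while in CBD it read 8.34, 8.41 and 3.65. Its log2 difference was -1.52 (SE 0.27), and CBD 3 stood near the SNL level. Of the members that stood higher, Lcn2 owed its difference to 10.7 CPM in SNL 3, with 0.58 and 1.63 CPM in the other SNL libraries, and Dusp1 to 29.2 CPM in SNL 2 against 14.8 and 13.8.

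Most stress genes of the endoplasmic reticulum stood higher in SNL than in the 2 groups combined. Of 18 genes 14 stood higher, with a median of 0.13 that was 0.06 without SNL 1, SNL 2 and CBD 1. At an unadjusted p under 0.05, 5 stood higher (27.8%, beside 6.37% of all genes) and 1 lower (5.56%, beside 6.63%). The median was 0.27 against sham and -0.06 against CBD. Ddit3, the transcription factor CHOP of prolonged stress, had the smallest p of all genes higher in SNL. It read 22.996, 22.3 and 23.9 CPM in SNL, 15.3, 14.6 and 16.1 in sham, and 17.3, 18.9 and 17.7 in CBD. The 3 groups did not overlap, the difference was 0.47 (SE 0.09), and CBD stood above sham by 0.23 (95% interval 0.00 to 0.46). Sdf2l1, a chaperone cofactor, read 9.10 to 11.7 CPM in SNL and 6.53 to 8.41 elsewhere. Atf4, the factor upstream of Ddit3, read 121, 140 and 111 CPM in SNL and 92.8 to 107 elsewhere. Both were without overlap. Hspa5, the main chaperone of the compartment, behaved differently: 295, 340 and 265 CPM in SNL, 191 to 235 in sham, and 325 to 338 in CBD. It was high in both ligated groups, with CBD above sham by 0.66 (95% interval 0.39 to 0.92).

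The interferon-response genes had the largest median difference of the 16 lists, and its size rested on 1 library. These genes are switched on when interferon signalling brings a factor complex to the interferon-stimulated response element. All 22 stood lower in SNL, 12 (54.5%, beside 6.63% of all genes) at an unadjusted p under 0.05, with a median of -1.15. Summed over the list, the level was 182.5, 232.4 and 184.9 CPM in SNL, 426.2, 392.1 and 536.4 in sham, and 648.7, 177.2 and 187.1 in CBD. CBD 1 lay above every sham library, while CBD 2 and CBD 3 lay at the SNL level. Without CBD 1 the median was -0.42, without SNL 1, SNL 2 and CBD 1 it was -0.62, and by voom with sample weights -0.55. The list's median was -1.27 against sham and -1.02 against CBD. By summed level every SNL library lay below every sham library, and CBD 1 was the 1 CBD library above the SNL range. Hypothalamic markers summed to 426.5 CPM in CBD 1, the most of any library. They summed to 330.3 CPM in SNL 1, where the interferon sum was 182.5 CPM, and to 8.92 to 14.4 CPM in sham. A part of that tissue in the interferon levels was not tested.

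The core of the response element is GAAANNGAAA, or TTTCNNTTTC on the opposite strand. It was looked for on both strands in the 250 bases upstream of each gene start, in RefSeq promoters of the build GRCm38.p6, an older build than that of the count table. Of the 22 genes 14 matched a promoter by symbol, and 9 of those (64.3%) held the element, as did 2.98% of all 32851 promoters and 3.16% of the 12548 tested genes with one. The stretches of the 4 members with both a match and an unadjusted p under 0.05 are shown, since their levels per library are given next. They run 5′ to 3′ on the gene's own strand, and the capitals mark the element.
Ifit1: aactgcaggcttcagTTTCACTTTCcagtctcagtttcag
Ifit3: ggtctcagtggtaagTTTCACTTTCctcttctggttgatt
Rsad2: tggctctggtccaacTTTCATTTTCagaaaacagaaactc
Trim30a: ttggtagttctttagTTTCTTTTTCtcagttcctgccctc
They lie at chr19:34640770-34640809 (plus strand), chr19:34583358-34583397 (plus), chr12:26456548-26456587 (minus) and chr7:104465205-104465244 (minus). The element starts 104, 156, 120 and 36 bases upstream of the gene start. Ifit3b has the same stretch as Ifit3. That stretch lies upstream of the gene start, and how far reads of Ifit3 and Ifit3b could be told apart was not tested. A match describes letters in a window and is no evidence that a factor was bound.

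Ifit1, an inhibitor of viral translation, read 3.39, 4.94 and 2.76 CPM in SNL, 9.94, 10.9 and 19.3 in sham, and 34.5, 1.91 and 3.36 in CBD. Ifit3, its partner, read 13.8, 16.5 and 11.5 CPM in SNL, 36.4, 32.6 and 70.3 in sham, and 94.4, 10.7 and 15.1 in CBD. Both show the same order: CBD 1 highest, then Sham 3, with SNL and the other CBD libraries lowest. Rsad2, the antiviral enzyme viperin, read 1.74 to 2.04 CPM in SNL, 4.09 to 5.86 in sham, and 13.97, 1.70 and 1.85 in CBD. Trim30a read 3.39 to 3.88 CPM in SNL, 4.74 to 11.9 in sham, and 16.4, 3.35 and 5.33 in CBD. Rtp4, a receptor-transporter protein, was the single member of the 22 with all SNL libraries below the rest (2.55 to 2.84 CPM against 3.04 to 15.6). That was 4.55% of the list, beside 2.54% of all genes. Oasl2, an oligoadenylate synthetase-like gene, read 5.21 to 6.25 CPM in SNL, and CBD 2, at 5.52 CPM, lay among them. Ifi27, a mitochondrial interferon-induced protein, varied less, at 27.8 to 35.6 CPM in SNL, 60.0 to 73.0 in sham and 29.5 to 49.8 in CBD.

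**Figure D4:**
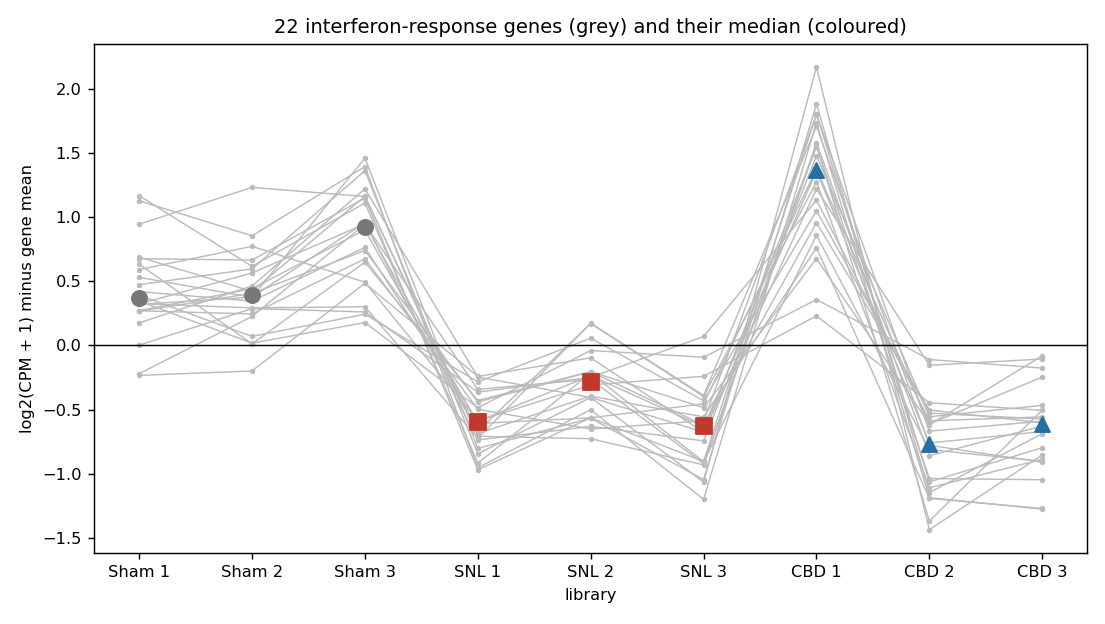
Each grey line is 1 of 22 interferon-response genes, drawn as log2(CPM + 1) minus the gene's mean over the 9 libraries, with coloured markers for the median of the list in each library. The 3 sham libraries and CBD 1 lie above 0, and the 3 SNL libraries, CBD 2 and CBD 3 below 0.

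Transcript length ran with the direction of the difference. Genes with all SNL libraries above the rest had a median transcript length of 1042.5 bases and a GC content of 53.4%, and those below had 2491 bases and 47.6%, against 1589 bases and 50.2% over all genes. In 5 bins of transcript length, 3.71% of genes in the shortest bin lay above and 1.39% below, and in the longest bin 0.935% and 4.79%. The median log2 difference went from 0.08 in the shortest bin to -0.08 in the longest. The libraries of a group did not share this evenly: in the longest bin the median deviation was -0.06, -0.0091 and -0.09 in SNL 1, SNL 2 and SNL 3, and -0.02 in Sham 2. Across genes, which are not independent, the Spearman correlation of the difference with GC content was 0.16. It was -0.14 for SNL against sham, 0.44 for SNL against CBD and -0.55 for CBD against sham. The median transcript was 576.5 bases long for oxidative phosphorylation, 615.8 for ribosomal proteins, 1937 for chromatin regulators and 2009 for ubiquitin ligases. With offsets that remove both trends, the medians were 0.26 for oxidative phosphorylation, 0.25 for ribosomal proteins, -0.14 for chromatin regulators and -0.20 for ubiquitin ligases, and edgeR again called 0 genes. All 16 lists kept the sign of their median in each of 18 settings. The lists were chosen with earlier results of these data known, and the settings share libraries, so this is no independent check. With SNL 1, SNL 2 and CBD 1 left out, the median was only 0.01 for myelin genes and 0.06 for endoplasmic reticulum stress genes.

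**Figure D5:**
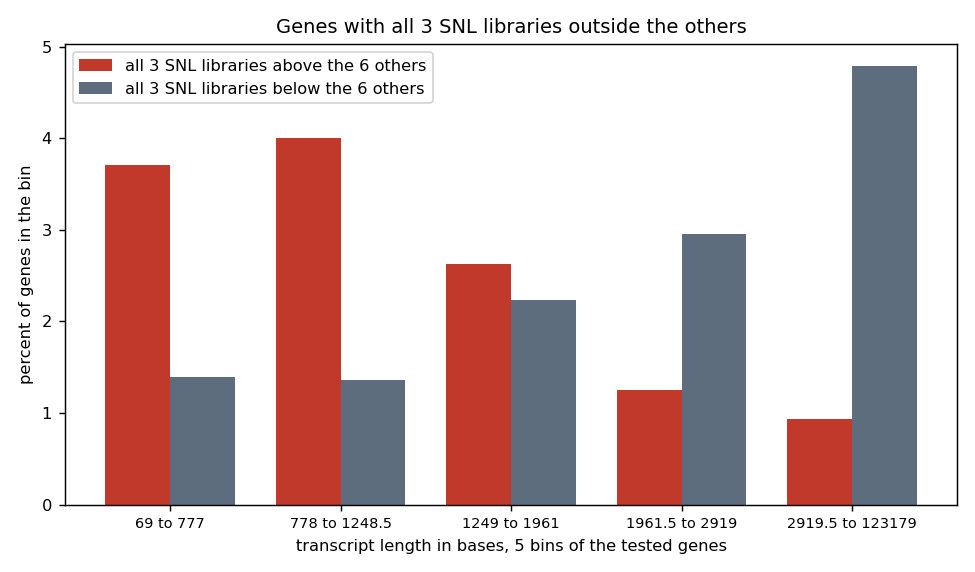
Tested genes in 5 bins of transcript length with about equal numbers of genes (horizontal axis, bases), with bars for the percent whose 3 SNL libraries all lie above (red) or below (grey) the 6 others. The share above is 3.71% in the shortest bin and 0.935% in the longest, and the share below is 1.39% and 4.79%.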

How the data were processed

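The authors deposited a table of expected counts per gene, the estimated counts RSEM gives when reads fit several transcripts, and RSEM and the build GRCm39 are named per the submitters' processing notes. No version, aligner or annotation is given in the sources used here. Total expected counts were 16972620 to 20470546 per library.

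Expected counts were rounded to whole numbers, filtered by edgeR's filterByExpr (17967 of 57010 genes kept) and scaled by trimmed mean of M-values. Testing used the quasi-likelihood F test of edgeR (4.0.16, R 4.3.3) with a factor for 3 groups over 9 libraries, SNL against sham and CBD weighted 0.5 each, adjusted by Benjamini-Hochberg over all tested genes. SEs were obtained as the log2 difference over the root of F. The scripts were tested on simulated data. CPM are scaled counts and follow no length correction, so levels are not compared between genes.

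Genes named averaged 1 CPM or more, and those known only by a clone name or identifier were passed over. They were the 12 smallest p-values per direction, the 3 smallest per described list in its main direction, and fixed anchors. The 8 smallest per direction among genes apart from both groups were added. For these, sham and CBD lay within 0.2 in log2 and no SNL library overlapped the rest. Further members named in a list (such as Slit2, Dcc, Scn1a, Kcna2, Lcn2, Dusp1, Arl4d, Rsad2, Ifit1, Ifit3 and Trim30a) were chosen after their values were seen. The comparison, the 48 gene lists and the 16 described were chosen with earlier results of these data known. Alternatives were DESeq2 1.42.0, limma 3.58.1 voom, other filters and scalings, a replicate block, offsets for GC content and length, and leaving out libraries. Transcript length and GC content came from an annotation of an older build and were available for 98.2% of tested genes.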

Additional observations from a re-analysis of the deposited data

How the results depend on the processing

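The count of genes called by edgeR at an adjusted p under 0.05 was 0; it was 15 with no filter on low counts, 174 by DESeq2's Wald test, and 0 to 1 with 1 library left out. Genes higher at an unadjusted p under 0.05 numbered 2045 by voom with sample weights and 794 to 1849 with 1 library left out, the last without CBD 1. Genes lower numbered 1951 by voom, 527 without SNL 1, SNL 2 and CBD 1, and 572 (without SNL 1) to 1601 with 1 library left out. Genes apart from both groups numbered 572, but 1256 by voom and 319 (without CBD 3) to 900 (without CBD 1) with 1 library left out. Genes with all SNL libraries outside the rest numbered 905, but 6421 without SNL 1, SNL 2 and CBD 1, where 1 SNL library remained, and 1063 to 2328 with 1 library left out, since fewer libraries leave fewer ways to overlap. Replicate numbers did not pair the libraries: of 9 same-numbered pairs 2 had a correlation of deviations over 0.1 (range -0.266 to 0.191). A replicate block gave 0 calls, 830 higher and 943 lower genes, and 384 apart from both. Of the named genes, Ttr (-0.15) ran from -1.72 to 0.30 and Gfap (-0.037) from -0.135 to 0.0902 with 1 library left out. Without SNL 1, SNL 2 and CBD 1, Gfap was 0.0281, Hspa5 -0.00407 and Cnr1 0.0149. None of these 4 had an adjusted p under 0.05 in edgeR in those settings, and the cause was not tested. The other 72 of the 76 genes taken by the naming rule kept their direction in all settings run; genes named beside them were not run one by one. Among them, leaving out SNL 1, SNL 2 and CBD 1 moved the difference by over 1.5 times for Atf4 (0.16), Dlg2 (-0.32), Ep300 (-0.51), Gria1 (-0.35), Ifi27 (-0.32), Mbp (0.32), Mobp (0.22), Opalin (0.05), Ndufb10 (0.78), Ndufs7 (0.65), Prdx5 (0.55), Psmb6 (0.45), Slc29a1 (0.38) and Slco1a4 (0.21), leaving out CBD 1 for Oasl2 (-0.88) and Rtp4 (-0.91), and offsets for Ndufa11 (0.32) and Gpx4 (0.21). The test had 6 residual degrees of freedom and a common biological coefficient of variation of 0.192, and why the tools differ in calls was not tested.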

Other observations

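Other lists gave values that belong to no group above. The 15 genes edgeR called with no filter on low counts include Ramp3, a receptor-activity modifying protein, and Pcp4, a calmodulin-binding protein. Both were highest in SNL 2: Ramp3 read 30.5, 92.5 and 34.2 CPM in SNL and 20.5 to 29.6 elsewhere, and Pcp4 read 298, 633 and 378 CPM in SNL and 148 to 305 elsewhere. Pcp4 in SNL 1 lay just under CBD 3. They were named after their values were seen.

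Microglial markers stood higher in SNL for 13 of 16, with a median of 0.14, 1 of them at an unadjusted p under 0.05, a share no larger than the 6.37% of all genes. Astrocyte markers were divided evenly, 7 higher and 7 lower, with a median of 0.00. Gfap, the astrocyte filament that rises in gliosis, read 302, 413 and 381 CPM in SNL, 442, 455 and 343 in sham, and 340, 358 and 323 in CBD, so the groups overlapped. Choroid plexus markers summed to 352 CPM in Sham 2 and 3346 CPM in SNL 2, with no group apart, and their marker Ttr read from 104 to 2018 CPM across the libraries.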
